A study of Mus musculus with 4 samples.

Results

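CD30high and CD30low effector Th17 cells of the mouse were compared across all genes of an expression array, to ask which functions and gene families accompany CD30 in Th17 cells apart from the few leading genes. The comparison used 2 of the 4 samples of the series, those titled effector Th17 CD30low and effector Th17 CD30high, and covered the 7786 of 18193 genes whose signal reached 300 on either array. Both populations were splenic CD4 T cells grown for 6 days under Th17 conditions, which were the cytokines IL-6, IL-23 and IL-1beta with blocking antibodies against IFN-gamma and IL-4, and then sorted by surface CD30. By the methods the cells were naive and carried a transgenic T cell receptor (DO11.10 or OTII, and which of these was used for the arrays is not given), and an ovalbumin peptide presented by irradiated, T cell-depleted splenocytes was the stimulus. The labels give the starting cells of the CD30low sample as CD44low and CD62Llow and those of the CD30high sample as CD62Lhi, whereas the methods give high CD62L throughout. If the labels hold, the gate and the starting cells cannot be told apart. Each population was measured on 1 GeneChip array of the whole mouse genome (Affymetrix), so no difference has a replicate error or a p-value.

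CD30, encoded by Tnfrsf8, is a member of the TNF receptor superfamily that appears on activated lymphocytes, and its ligand is a membrane protein of the TNF family. Th17 cells are CD4 T cells that make IL-17A and act at barrier tissues, with functions that range from recruitment of neutrophils to support of epithelia. A Th17 culture holds cells at several stages of activation, and activation, quiescence, migration and metabolism each have sets of genes by which they are usually followed.

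The 2 arrays had the same overall level. The trimmed mean of the signals, with 2% of probe sets left out at either end, was 497 on both, and 7394 genes in CD30low and 7421 genes in CD30high cells reached 300. Tnfrsf8 had a signal of 34.9 in CD30low and 132 in CD30high cells, in the order of the sort but dim on both arrays. The T cell identity of both samples was visible in Cd3d, a chain of the receptor complex, at 19558 in CD30low and 14031 in CD30high cells, and in Cd4 at 679.8 and 582. Il17a, the defining cytokine of Th17 cells, was measured on both arrays, at 1398 in CD30low and 14443 in CD30high cells. The annotation used here names no probe set for Il17f, Il22 or Il23r, so these are not analysed here. In bulk RNA of this kind, fewer cells of a type and less RNA per cell cannot be told apart.

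Of the 7786 genes, 592 (7.6%) differed at least 2-fold, with signals under 100 set to 100. Where a gene is given with a pair of signals below, the first is that of CD30low and the other that of CD30high cells, and a fold against a signal under 100 is given as a lower bound. In CD30high cells 307 genes (3.94%) were higher and 285 (3.66%) were lower. The median log2 ratio of CD30high over CD30low cells was 0.01 and 81.4% of the genes lay within 1.5-fold. The median fold was 2.67 for the genes that were higher and 2.88 for those that were lower, and 4 and 11 genes passed 10-fold. Probe sets of the same gene were the only measure of precision. Over 3010 genes with 2 or more probe sets at 300, the SD per probe set of the log2 ratio was 0.20. Of 174 genes past 2-fold with another probe set at 300, 173 had the same direction in it and 137 passed 2-fold again. This agreement covers the technical error within an array and not the spread between cultures.

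Genes close to the limit had nearly the same values on either side of it. Rgs2 (161 and 323), Slc66a2 (304 and 611) and Lgr4 (1191 and 2395) lay just inside among the higher genes. Wdr78 (428 and 856), Kat6b (686 and 1371) and 4632415L05Rik (208 and 415) lay just outside. Among the lower genes Stk38 (4297 and 2144), Evl (3496 and 1741) and Exoc6 (1035 and 515) lay inside, and Errfi1 (555 and 278), Vsir (3629 and 1819.6) and Ube2h (2444 and 1229.6) outside.

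**Figure D1:**
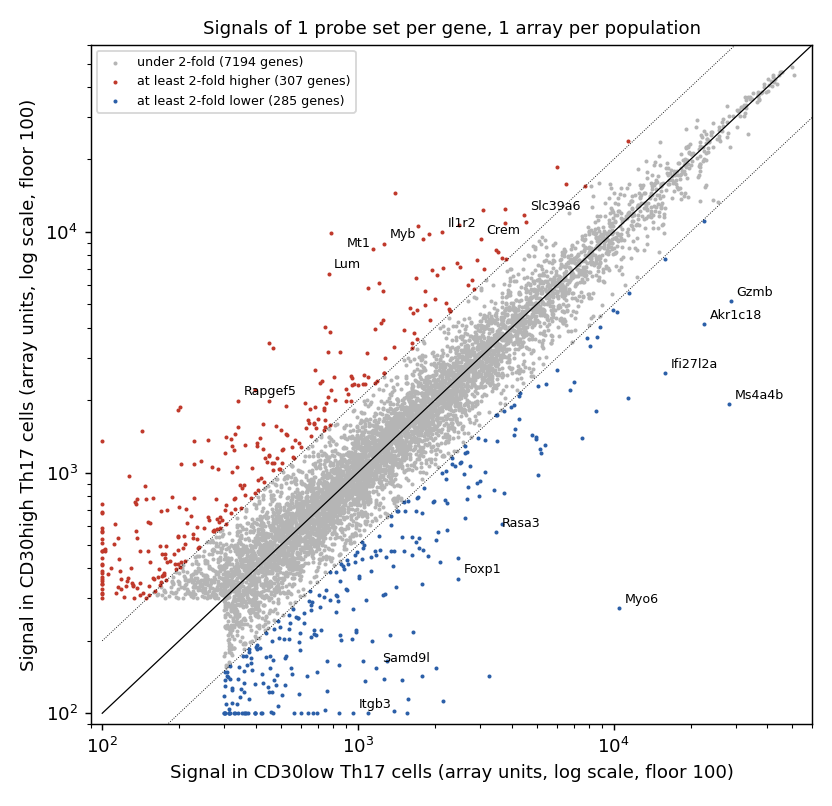
Signals of 7786 genes in CD30low (x axis) and CD30high (y axis) Th17 cells, in array units on log scales with signals under 100 set to 100, 1 probe set per gene and 1 array per axis. The solid line marks equal signals and the dotted lines mark 2-fold. The 307 red and 285 blue points lie on both sides of the diagonal at all signal levels, and a few genes discussed below are named.

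Families were followed through 69 gene lists that covered 1389 of the measured genes. They held 218 of the 592 genes past 2-fold, and the other 374 were in none of these lists. List medians are read beside 0.01, the median of all measured genes. Their counts are read beside 3.94% higher and 3.66% lower over all measured genes. In every list, a member that reached 300 on a single array could pass 2-fold only in the direction of that array. The proteasome, cytosolic ribosomal and respiratory chain lists lay close to the median of all measured genes, at -0.03, 0.05 and -0.03. Nucleolar ribosome biogenesis and mitosis genes leaned away from it, with medians of 0.35 and -0.38. Families of receptors, signalling proteins and transcription factors held members far out on the higher side, the lower side or both.

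**Figure D2:**
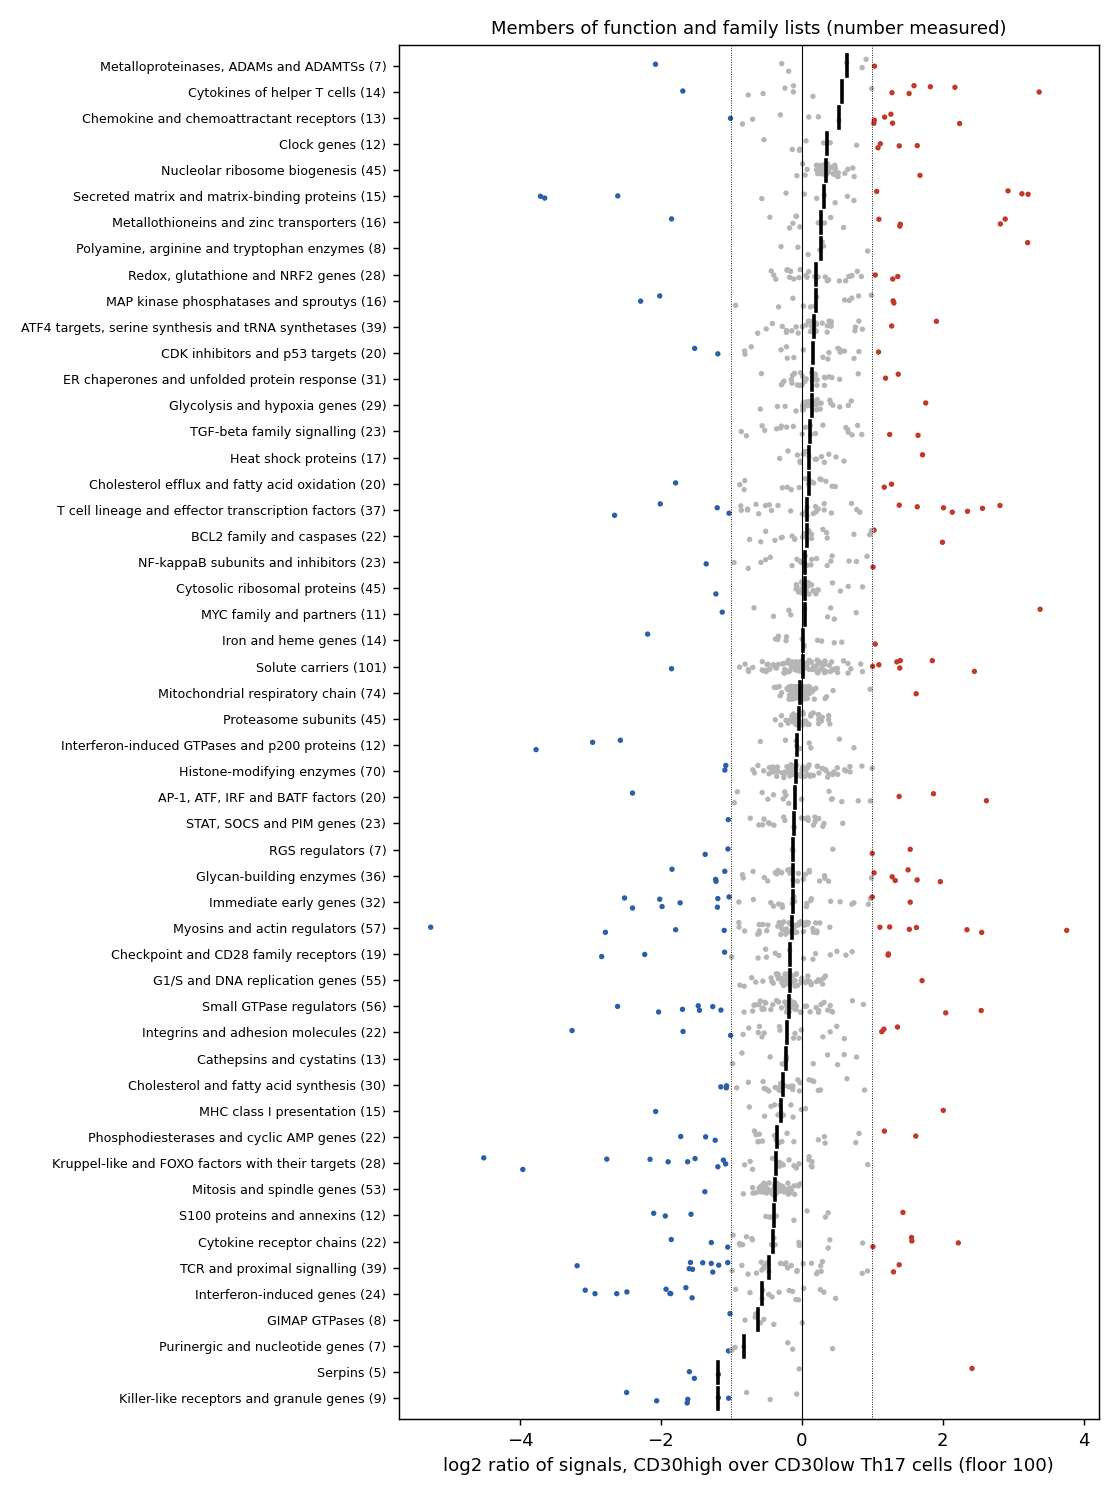
Log2 ratio of CD30high over CD30low signals (x axis) for each measured member of the function and family lists with 5 or more measured members, without the cell type marker lists and the lists chosen after the values were seen (rows, with the number measured in parentheses), 1 array per population. Red and blue points are members at least 2-fold higher or lower, grey points are under 2-fold, black bars are list medians and dotted lines mark 2-fold. The medians drawn run from -1.18 for killer-like receptors and granule genes to 0.64 for metalloproteinases, and the points of ribosomal, proteasome and respiratory chain genes crowd around 0.

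Receptors for cytokines went both ways. Of 22 measured chains 4 were higher and 3 were lower, with a median log2 ratio of -0.41. Il1r2, the decoy receptor that binds IL-1 without signalling, had a signal of 2134 in CD30low and 9955 in CD30high cells (4.66-fold higher). Il17re, a chain of the receptor for IL-17C, was at 168 in CD30low and 497 in CD30high cells (2.95-fold). Il12rb1, which the receptors for IL-12 and IL-23 share, was at 223 in CD30low and 657 in CD30high cells (2.94-fold). In the other direction, the signal of Il6st, which encodes the gp130 chain through which IL-6 signals, was 361 in CD30low and 62.8 in CD30high cells, and was at least 3.61-fold lower. Il18rap, the accessory chain of the IL-18 receptor, was at 739 in CD30low and 304 in CD30high cells, and Ifnar1, a chain of the type I interferon receptor, at 1436 in CD30low and 693 in CD30high cells (2.43-fold and 2.07-fold lower). Il7r, the receptor chain for the survival cytokine IL-7, was within 1.5-fold, at 8752 in CD30low and 8513 in CD30high cells.

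Of 33 chemokine genes 26 were below 100 on both arrays and 2 were measured, both higher in CD30high cells. Each of the 2 reached 300 only on the CD30high array, so the direction was set by the signal limit. Ccl6 had a signal of 169 in CD30low and 692 in CD30high cells, and Ccl22, a ligand of CCR4, was at 78.2 in CD30low and 388 in CD30high cells (4.09-fold and at least 3.88-fold). Among cytokine genes 6 of 14 were higher, among them Ebi3, a subunit of IL-27 and IL-35 (499.5 and 1507), Csf1, the growth factor of macrophages (214 and 616), and Lta, a TNF family cytokine (3468 and 8423). The only lower one was Penk, the enkephalin precursor, with a signal of 715 in CD30low and 222 in CD30high cells (3.22-fold). In the TGF-beta family 2 of 23 measured genes were higher. Inhba, which encodes the subunit of activin A, was at 336 in CD30low and 1055 in CD30high cells (3.14-fold), and Ltbp3, a protein that holds latent TGF-beta in the matrix, at 179.6 in CD30low and 427 in CD30high cells (2.38-fold). The receptor Tgfbr2 was at 3380.1 and 2638 and the signal transducer Smad3 at 1764 and 2790.1, both under 2-fold.

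Receptors for attractants were more often higher, in 6 of 13 measured genes, with 1 lower and a median of 0.53. Ccr1, a receptor for inflammatory CC chemokines, was at 229 in CD30low and 1082 in CD30high cells (4.73-fold). Gpr183, which senses oxysterols and guides cells within lymphoid tissue, was at 1058 in CD30low and 2543 in CD30high cells (2.40-fold). Ltb4r1, the high-affinity receptor of leukotriene B4, was at 1907 in CD30low and 4309.7 in CD30high cells (2.26-fold). Cxcr4 and Ccr2 passed the limit narrowly (2.03-fold and 2.04-fold), and Ccr6, the receptor that marks many Th17 cells, was dim at 136 and 333. The lower gene was Cxcr6, the receptor of CXCL16, at 650.2 in CD30low and 323 in CD30high cells. Ccr7 and S1pr1, which govern passage through lymph nodes, were at 5767 and 3554 and at 1739 and 1864 and did not pass.

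A wider list of G protein coupled receptors, drawn up after the values were seen, held 5 higher and 5 lower members among 25 measured. Gpr65, which senses acid pH, had a signal of 745 in CD30low and 4025 in CD30high cells (5.40-fold). Cysltr2, a receptor of cysteinyl leukotrienes, was at 477 in CD30low and 1556 in CD30high cells and the adhesion receptor Adgra3 at 244 in CD30low and 1114 in CD30high cells (3.26-fold and 4.57-fold). Lower were F2r, the thrombin receptor, at 4093 in CD30low and 1429 in CD30high cells (2.86-fold), and Gpr174, a receptor of lysophosphatidylserine, at 1345 in CD30low and 472 in CD30high cells (2.85-fold). P2ry10, another receptor for lysophospholipids, was at 4277 in CD30low and 2079.9 in CD30high cells (2.06-fold).

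Surface partners of other cells followed no common direction. Of 19 measured checkpoint and CD28 family genes 2 were higher and 3 lower. Cd200, the ligand of an inhibitory myeloid receptor, was at 469 in CD30low and 1099 in CD30high cells (2.34-fold). Cd96, a receptor for nectin-like proteins, was at 741 in CD30low and 104 in CD30high cells (7.16-fold lower). The SLAM receptors Slamf6 and Cd84, which bind copies of themselves on other lymphocytes, were at 695 in CD30low and 148 in CD30high cells and at 974 in CD30low and 455.9 in CD30high cells, respectively. Cd28 and Icos, the costimulatory receptors, were at 9674 and 15882 and 10426 and 13807 and did not reach 2-fold. Among 22 measured integrins and adhesion molecules 3 were higher and 3 lower. The laminin-binding integrin chain Itga3 was at 347 in CD30low and 889 in CD30high cells (2.56-fold), and Alcam, the ligand of CD6, at 1066 in CD30low and 2343 in CD30high cells (2.20-fold). Itgb3, the beta chain of the vitronectin receptor, was at 958 in CD30low and 39.5 in CD30high cells and thus at least 9.58-fold lower. The tetraspanin gene Cd9 was at 1513 in CD30low and 471 in CD30high cells (3.21-fold lower).

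**Figure D3:**
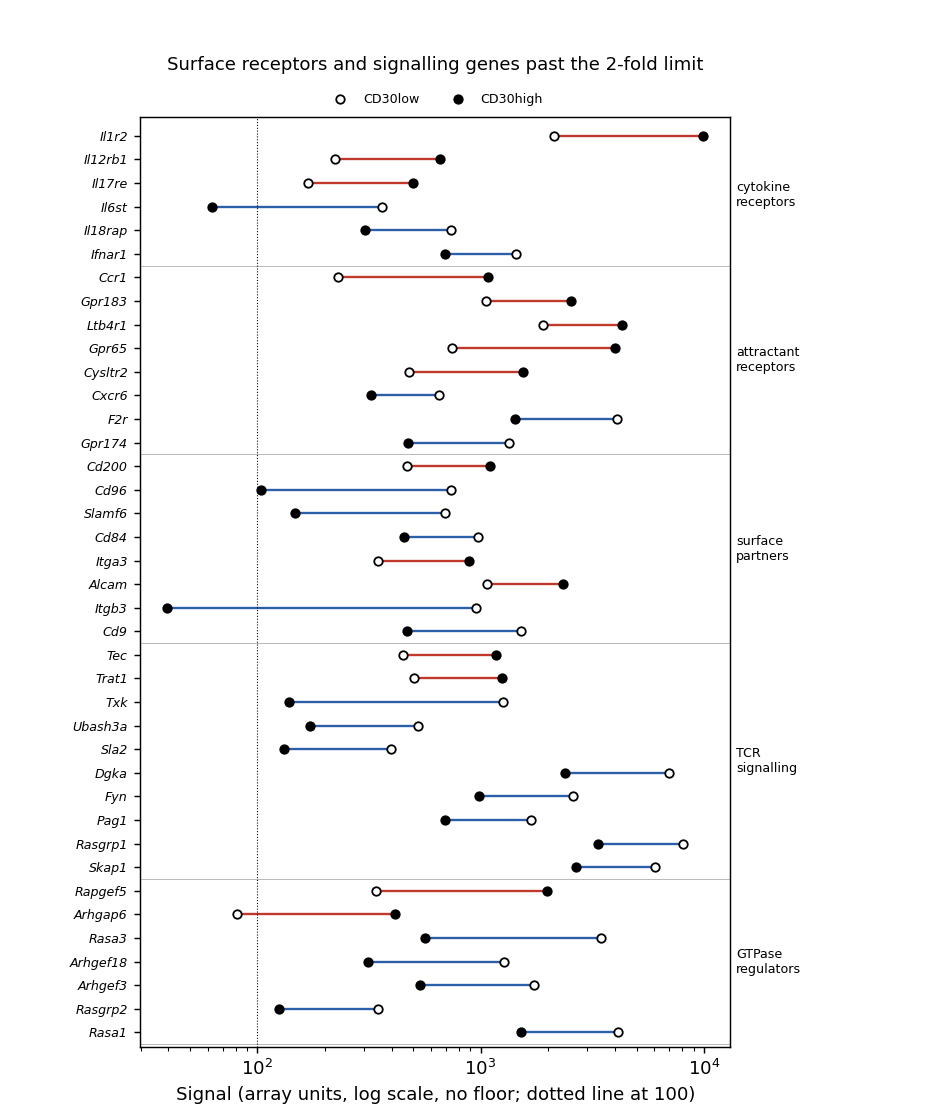
Signals (x axis, array units on a log scale with no floor) in CD30low (open circles) and CD30high (filled circles) Th17 cells for genes of surface receptors and signalling past 2-fold (rows, grouped at the right), 1 array per population. Red lines join genes higher and blue lines genes lower in CD30high cells, and the dotted line marks 100. In the group of TCR signalling only Tec and Trat1 of the genes drawn run to the right.

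Genes of signalling downstream of the T cell receptor were lower more often than higher. Of 39 measured genes 9 were lower and 2 higher, 28 had a ratio below 1, and the median was -0.47. Txk, a kinase of the TEC family, was at 1263 in CD30low and 139 in CD30high cells (9.12-fold lower), whereas Tec, a kinase of the same family, was at 449.9 in CD30low and 1173 in CD30high cells (2.61-fold higher). Trat1, an adaptor that stabilises the receptor complex, was the other higher gene (505 and 1245). Rasgrp1, the exchange factor that links diacylglycerol to Ras, was at 8080.4 in CD30low and 3368 in CD30high cells (2.40-fold lower), and Dgka, the kinase that removes diacylglycerol, was lower as well, at 6983 in CD30low and 2384 in CD30high cells (2.93-fold). The kinase Fyn was at 2602 and 983 and the adaptors Pag1 and Skap1 at 1692 and 695 and 6029 and 2664. Negative regulators were among the lower genes too, with Ubash3a, a phosphatase-like protein, at 522 and 173 and Sla2, an adaptor that limits receptor levels, at 395 and 132. The receptor chains Cd3d and Cd3g and the phosphatase Ptprc did not pass, with 24422 and 13545 for Ptprc. Malt1, a protease of the NF-kappaB branch, lay on the other side of equality, at 4827 and 8752.

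Regulators of small GTPases were also lower more often than higher, and Rasgrp1 stands in this list as well as in that of receptor signalling. Of 56 measured genes 7 were lower and 2 higher, and the median was -0.19. Rasa3, which inactivates Ras and Rap, was at 3464 in CD30low and 566 in CD30high cells (6.12-fold lower) and Rasa1, another inactivator of Ras, at 4134 in CD30low and 1512 in CD30high cells (2.73-fold). The Rap activator Rasgrp2 was at 347 and 126. Rapgef5, an activator of Rap, was the gene furthest in the other direction, with a signal of 340.5 in CD30low and 1989 in CD30high cells (5.84-fold higher). The GTPases Rac1 and Cdc42 themselves were nearly equal on the arrays, with 9412 and 9325 for Rac1 and 11919.5 and 10269.5 for Cdc42. Ipcef1, a partner of the cytohesin exchange factors, and Cnksr3, its neighbour on the chromosome, were at 1390.0 and 102 and 341 and 74.7. In a list of RAB GTPases and EHD proteins chosen after the values were seen, 5 of 38 measured genes were higher and 1 was lower. Ehd1 and Ehd4, which act in recycling of endosomes, were at 622 and 1953 and 482 and 1146.

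Phosphatases, RGS proteins and cyclic AMP genes went both ways within their families. Among MAP kinase phosphatases and sproutys, Dusp4 and Dusp14 were higher (2.46-fold and 2.48-fold), while Dusp6, the phosphatase of cytoplasmic ERK, was at 2623 in CD30low and 649 in CD30high cells and Spry1, an inhibitor of receptor signalling to ERK, at 589.5 in CD30low and 121 in CD30high cells (4.04-fold and 4.88-fold lower). Of the 7 measured RGS genes, which quench G protein signals, Rgs1 was at 3759 in CD30low and 10925 in CD30high cells (2.91-fold higher) and Rgs10 at 3501 in CD30low and 1354 in CD30high cells (2.59-fold lower). In the cyclic AMP list Crem, a modulator of transcription by cyclic AMP, was at 3036 in CD30low and 9320.3 in CD30high cells (3.07-fold). Pde3b and Pde5a, phosphodiesterases of cyclic nucleotides, were lower (8585 and 3664 and 329 and 40.4). A list of PI3K, AKT and SGK genes chosen after the values were seen had 5 lower and 0 higher genes among 26 measured. Because of that choice, the count cannot be weighed against the 3.66% lower over all genes. Inpp4b, a lipid phosphatase that ends PI3K signals, was at 5399 in CD30low and 1300.4 in CD30high cells and the kinase Sgk1 at 5157 in CD30low and 1249 in CD30high cells (4.15-fold and 4.13-fold lower). The receptor-type phosphatases Ptprj and Ptprk, from another list of that kind with 3 higher and 0 lower among 20, were at 188 and 789 and 136 and 780.3. In that of TLR genes, Tlr1 and Tlr6, which lie next to each other and each pair with TLR2, were at 2222 and 579.7 and 321 and 111 (3.83-fold and 2.90-fold lower).

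Transcription factors held some of the widest ratios. Of 37 measured factors of T cell lineages 7 were higher and 4 lower, with a median of 0.08. Myb, a factor of progenitor and memory lymphocytes, had a signal of 1269 in CD30low and 8923 in CD30high cells (7.03-fold). Msc, a basic helix-loop-helix repressor, was at 229 in CD30low and 1358 in CD30high cells (5.92-fold), and Zeb2, a zinc finger repressor, at 59.0 in CD30low and 511 in CD30high cells (at least 5.11-fold). Sox5, a factor known in Th17 differentiation, was at 154 in CD30low and 619 in CD30high cells (4.03-fold). Rora, an orphan nuclear receptor of Th17 cells, was at 951 in CD30low and 2482 in CD30high cells (2.61-fold). Lower were Gata3, the factor of Th2 cells, at 1333 in CD30low and 211 in CD30high cells (6.30-fold), Ets2 at 852 and 212, Ikzf2 at 976 and 425 and Nfatc1, a calcium-dependent factor, at 1418 and 693. Another probe set of Nfatc1 was at 944 and 730, under 1.5-fold. Hif1a, Satb1 and Id2 differed by under 1.5-fold, with 25777 and 27166 for Hif1a and 21781 and 22708 for Satb1. In the MYC family, Mycn was at 143 in CD30low and 1490.1 in CD30high cells (10.4-fold higher) while Myc was at 4539 and 6029.7, and the antagonist Mxd3 was at 1710.3 and 782 (2.19-fold lower).

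Factors of quiescence and their targets were mostly lower or level. Of 28 measured KLF and FOXO genes with known targets 10 were lower and 0 higher. A ratio below 1 was found for 22 and above 1 for 6, the largest a log2 ratio of 0.94, under the 2-fold limit. Klf2, which keeps naive T cells at rest and drives their homing genes, was at 3259.7 in CD30low and 143 in CD30high cells (22.8-fold), and Klf3 at 1555 in CD30low and 52.1 in CD30high cells (at least 15.5-fold). Foxp1, another factor of T cell quiescence, was at 2470.2 in CD30low and 363 in CD30high cells (6.81-fold), and each of the other 7 Foxp1 probe sets was lower in CD30high cells as well. Foxo1, the factor that PI3K signals exclude from the nucleus, was at 2192 in CD30low and 768 in CD30high cells (2.86-fold). The targets and relatives that were lower included Btg2, an antiproliferative gene (2510.3 and 1099.6), Tsc22d3, which encodes a glucocorticoid-induced protein (1049 and 485), and Klf13 (2948 and 1395). Il7r, Ccr7 and Btg1, other genes of this list, did not reach 2-fold, with 18715 and 17762 for Btg1.

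Of 32 measured immediate early genes 8 were lower and 2 higher, and the higher ones were Rgs1 and Rgs2, given above. Egr2 and Egr3, zinc finger factors induced by calcium and NFAT, were at 519 in CD30low and 131 in CD30high cells and at 1138 in CD30low and 199 in CD30high cells, respectively. Egr1 was at 2632 and 1287 and the AP-1 subunit Fos at 842 and 159 (2.04-fold and 5.28-fold lower). The orphan receptor Nr4a3 was at 331 and 28.3. In the separate list of AP-1, ATF, IRF and BATF factors 3 of 20 measured genes were higher and Fos was the only lower one. There Batf3 was at 1718 in CD30low and 10567 in CD30high cells (6.15-fold), Atf3 at 284 in CD30low and 1037 in CD30high cells (3.65-fold) and Irf4, the factor of T cell receptor strength, at 2929 in CD30low and 7634 in CD30high cells (2.61-fold). Ier3 and Myc, also immediate early genes, were at 3033 and 5842 and 4539 and 6029.7 and stayed under 2-fold. Of 12 measured clock genes 4 were higher and 0 lower, and 2 of them, Nfil3 (1831 and 5704) and Rora, also stand in the T cell list. The other pair was dim, with Per1 at 271 and 574 and Ciart at 193 and 417. Bhlhe40, a clock-related factor of effector T cells, was at 4941 and 8482 (1.72-fold) and did not pass.

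**Figure D4:**
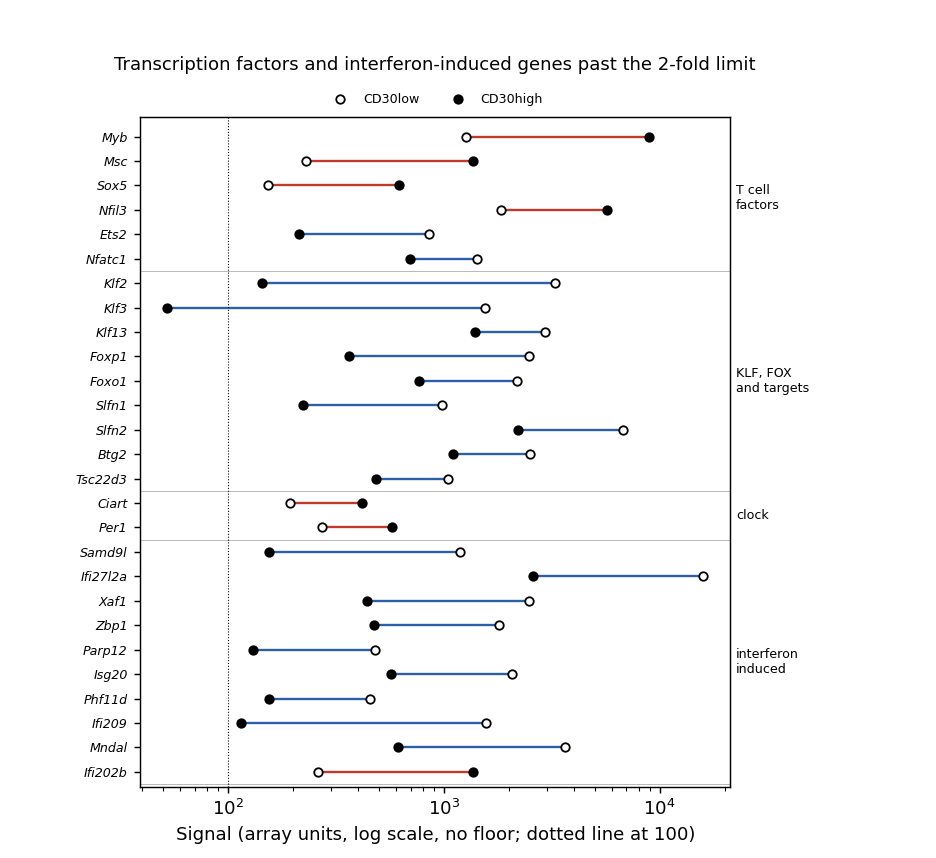
Signals (x axis, array units on a log scale with no floor) in CD30low (open circles) and CD30high (filled circles) Th17 cells for transcription factor and interferon-induced genes past 2-fold (rows, grouped at the right), 1 array per population. Red lines join genes higher and blue lines genes lower in CD30high cells, and the dotted line marks 100. In the KLF and FOX group and, except for Ifi202b, in the interferon group the filled circle lies to the left.

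Genes induced by interferon were lower in CD30high cells in part. Of 24 measured genes of the list 9 were lower and 0 higher, and the median was -0.56. Ifitm1, an interferon-induced membrane protein outside the list and singled out after its values were seen, was at 6006 in CD30low and 18630.4 in CD30high cells (3.10-fold higher). Ifi27l2a was at 15939.9 in CD30low and 2582 in CD30high cells (6.17-fold), and Samd9l, a restriction factor that slows protein synthesis, at 1182 in CD30low and 155 in CD30high cells (7.64-fold). Xaf1 was at 2467 and 442, Zbp1, a sensor of nucleic acids, at 1804 and 475 and the exonuclease Isg20 at 2064 and 569. Ifi35, Ly6e and Parp9 did not pass, with 9124 and 6812 for Ifi35 and 3106 and 3006 for Parp9. Members of the p200 family went in opposite directions. Mndal and Ifi209 were at 3654 in CD30low and 614 in CD30high cells and at 1564 in CD30low and 115 in CD30high cells, whereas Ifi202b, singled out after the values were seen, was at 259 in CD30low and 1361 in CD30high cells (5.25-fold higher). These genes are close relatives in 1 cluster, so a probe set may also bind transcripts of another member. Guanylate-binding proteins were level, with Gbp2b at 13253 and 14498 and Gbp7 at 7333 and 6952. Genes of MHC class I presentation were under 2-fold except H2-T24, which was lower (503 and 119), and H2-Q10, which was higher (320.5 and 1289.7). Both belong to a family of similar sequences.

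Cytotoxic granule genes were lower or level in the measured list. Of 34 killer-like receptor and granule genes 20 were below 100 on both arrays. All 9 measured ones had a ratio below 1, and 6 of them passed 2-fold. Gzmc, Nkg7, Serpinb9, Klrd1 and Klrb1f reached 300 only on the CD30low array, so their direction was set by the signal limit. Gzmb, the granule protease that starts apoptosis in target cells, was at 28882 in CD30low and 5155 in CD30high cells (5.60-fold). Gzma was at 2698 in CD30low and 874 in CD30high cells (3.09-fold) and Gzmc at 417 in CD30low and 37.9 in CD30high cells (at least 4.17-fold). Nkg7, a granule membrane protein, was at 336 and 109, and Serpinb9, which protects the cell from its own granzyme B, at 570.3 and 251. The granule membrane gene Lamp1, which all cells use for lysosomes, was at 3819 and 3635. Of 5 measured serpins 3 were lower, with Serpinb6b at 1627 and 539 and Serpinb1a at 1126 and 391, and the secreted serpin Serpinf1 was higher, at 1094 in CD30low and 5839.7 in CD30high cells (5.34-fold).

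MS4A genes, which encode small membrane proteins with several membrane passes, held 2 lower genes among 4 measured. Ms4a4b was at 28245 in CD30low and 1923 in CD30high cells (14.7-fold) and Ms4a4c, its neighbour on chromosome 19, at 2149 in CD30low and 113 in CD30high cells (19.0-fold). Ms4a6b was at 21803 in CD30low and 13416 in CD30high cells and Ms4a6c at 1836 in CD30low and 1784 in CD30high cells, both under 2-fold. The promoter windows of the Ms4a4b and Ms4a4c pair are shown because the neighbours were the most strongly lower members and their upstream sequences resemble each other. Each window runs from 250 bases before to 50 bases after the gene's start on the plus strand of GRCm38.p6, from RefSeq, at chr19:11443308-11443607 for Ms4a4b and chr19:11407411-11407710 for Ms4a4c. The windows were identical at 73.8% of 321 aligned positions, and capitals mark runs of 15 or more bases that both hold, 93 bases in all, which lie in the part of each window near the start.
Ms4a4b: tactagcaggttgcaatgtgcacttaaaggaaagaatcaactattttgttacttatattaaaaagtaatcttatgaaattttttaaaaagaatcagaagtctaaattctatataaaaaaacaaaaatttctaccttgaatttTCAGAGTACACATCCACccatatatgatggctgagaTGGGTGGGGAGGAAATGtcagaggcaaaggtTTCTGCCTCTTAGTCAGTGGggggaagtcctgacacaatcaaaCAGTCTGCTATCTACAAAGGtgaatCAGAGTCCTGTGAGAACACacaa
Ms4a4c: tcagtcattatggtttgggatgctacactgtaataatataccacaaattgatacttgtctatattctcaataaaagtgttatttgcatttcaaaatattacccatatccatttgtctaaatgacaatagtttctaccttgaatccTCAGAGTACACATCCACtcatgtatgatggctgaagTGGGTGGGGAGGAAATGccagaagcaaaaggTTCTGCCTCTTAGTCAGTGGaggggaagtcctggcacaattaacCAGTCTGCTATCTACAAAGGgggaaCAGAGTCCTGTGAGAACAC
A probe set for one of such close relatives may also bind the other, and this was not tested. Slfn1 and Slfn2, SLFN genes that are neighbours as well, were likewise both lower, at 983 and 221 and 6746 and 2195, whereas Slfn9 was at 712 and 746 and Slfn8 at 598 and 407.

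Genes of metal handling were mostly higher where they passed. Of 16 measured metallothionein and zinc transporter genes 5 were higher and 1 lower. Mt1 and Mt2, metallothioneins that bind zinc and copper, were at 1150.0 in CD30low and 8508 in CD30high cells and at 466 in CD30low and 3292 in CD30high cells (7.40-fold and 7.06-fold). Importers of zinc into the cytosol were higher, with Slc39a6 at 4477 in CD30low and 11743 in CD30high cells, Slc39a8 at 1623 in CD30low and 3467 in CD30high cells and Slc39a14 at 435 in CD30low and 1146 in CD30high cells. The lower gene was Slc30a4, an exporter of zinc from the cytosol, at 4985 in CD30low and 1385 in CD30high cells (3.60-fold). Other carriers of the family were nearly level, with Slc39a10 at 3839 and 3765 and Slc39a1 at 1876 and 1719. The promoters of Mt1 and Mt2 are printed because the genes are adjacent, were higher together and are textbook targets of the metal-responsive factor MTF1. The windows span the same 300 bases around the start as above, on the plus strand of GRCm38.p6 from RefSeq, at chr8:94178839-94179138 for Mt1 and chr8:94172368-94172667 for Mt2. Capitals mark the core of the metal response element, TGCNCNC on either strand, of which the Mt1 window held 3 and the Mt2 window 6.
Mt1: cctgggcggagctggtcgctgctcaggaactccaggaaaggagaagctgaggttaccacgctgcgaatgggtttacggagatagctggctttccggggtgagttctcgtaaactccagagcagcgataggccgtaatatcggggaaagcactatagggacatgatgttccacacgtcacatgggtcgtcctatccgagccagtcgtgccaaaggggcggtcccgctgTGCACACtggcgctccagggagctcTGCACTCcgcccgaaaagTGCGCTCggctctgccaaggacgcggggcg
Mt2: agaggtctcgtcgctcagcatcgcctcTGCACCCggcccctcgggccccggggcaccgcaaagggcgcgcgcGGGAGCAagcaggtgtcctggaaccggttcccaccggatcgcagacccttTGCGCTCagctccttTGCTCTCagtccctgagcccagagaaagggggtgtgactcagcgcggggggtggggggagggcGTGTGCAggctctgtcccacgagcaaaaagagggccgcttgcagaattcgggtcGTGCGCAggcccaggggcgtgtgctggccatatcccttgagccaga
The core is short and was present in 59.9% of the windows of all measured genes. The windows of Mt1 and Mt2 were identical at 49.4% of 358 aligned positions.

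**Figure D5:**
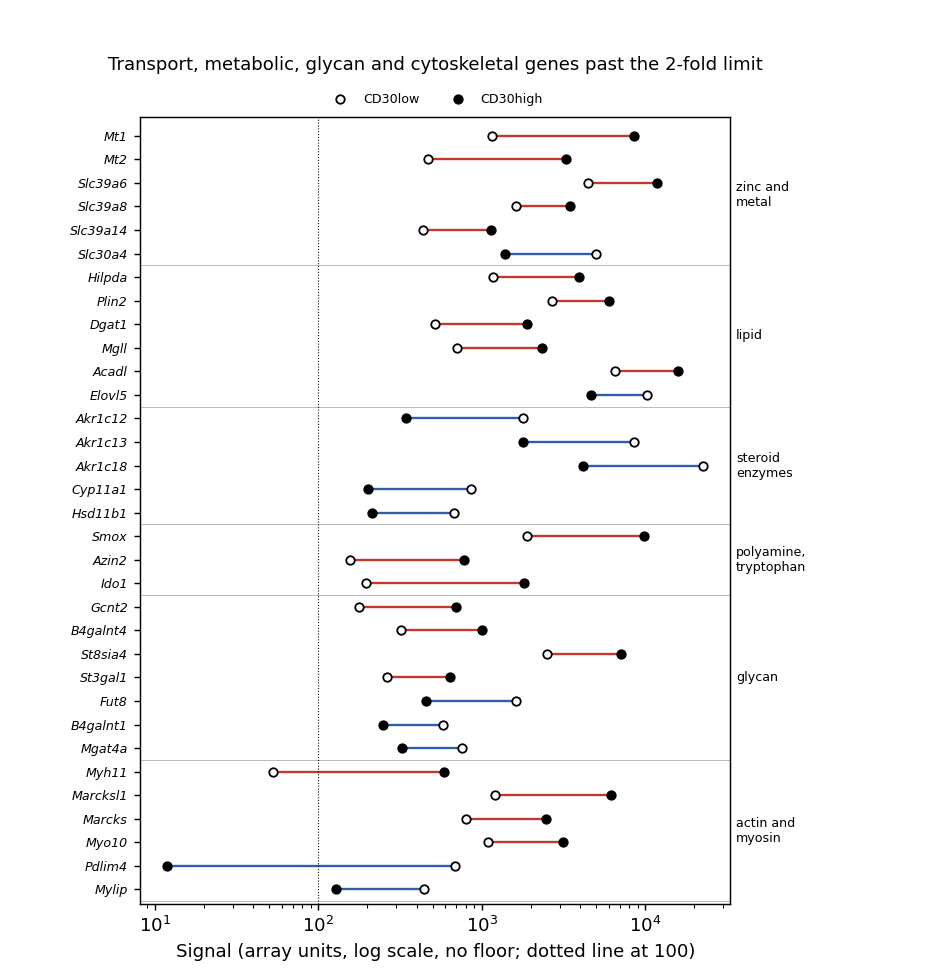
Signals (x axis, array units on a log scale with no floor) in CD30low (open circles) and CD30high (filled circles) Th17 cells for transport, metabolic, glycan and cytoskeletal genes past 2-fold (rows, grouped at the right), 1 array per population. Red lines join genes higher and blue lines genes lower in CD30high cells, and the dotted line marks 100. The 5 steroid enzymes drawn are the lower ones of their list and lie to the left in CD30high cells, and the 2 higher ones, Hsd17b10 and Akr1b8, are not drawn. Of the metal genes drawn only Slc30a4 lies to the left.

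Several lipid droplet proteins and lipid enzymes were higher, and most genes of lipid metabolism did not pass. Hilpda, a lipid droplet protein induced in hypoxia, was at 1167 in CD30low and 3951 in CD30high cells (3.39-fold), and Plin2, which coats lipid droplets, at 2684 in CD30low and 6043 in CD30high cells (2.25-fold). In a list of neutral lipid and sphingolipid enzymes chosen after the values were seen, 5 of 30 measured genes were higher and 0 lower, with a median of 0.12. Dgat1, which makes triglyceride, was at 521 in CD30low and 1896 in CD30high cells (3.64-fold) and Mgll, which completes its breakdown, at 708 in CD30low and 2348 in CD30high cells (3.32-fold). Galc, a lysosomal enzyme of sphingolipids, was at 92.2 in CD30low and 686 in CD30high cells (at least 6.86-fold). Acadl, a dehydrogenase of fatty acid oxidation, was at 6543 in CD30low and 15822 in CD30high cells (2.42-fold). Of 30 measured genes of cholesterol and fatty acid synthesis 3 were lower and 0 higher, and 23 had a ratio below 1. Elovl5, an elongase, was at 10299.6 in CD30low and 4645 in CD30high cells (2.22-fold lower), and Hmgcs1, an early enzyme of the sterol pathway, was at 12326 and 6498 (1.90-fold) and did not pass. Mvk and Dhcr7 passed at low signals (365 and 174 and 402 and 192), and the second probe set of Mvk, at lower signals still, had a log2 ratio of 0.43. Scd2, a desaturase, leaned the other way, at 15212 and 23727.

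Aldo-keto reductases and steroid enzymes, also listed after the values were seen, had 5 lower and 2 higher genes among 16 measured. Akr1c18, which inactivates progesterone, was at 22633 in CD30low and 4144 in CD30high cells (5.46-fold). Its relatives Akr1c13 and Akr1c12 were at 8500.2 in CD30low and 1797 in CD30high cells and at 1786 in CD30low and 343 in CD30high cells, and their transcripts are similar enough that probe sets may bind more than 1 of them. Cyp11a1, the enzyme that starts steroid synthesis from cholesterol, was at 859.6 in CD30low and 202 in CD30high cells (4.26-fold), and Hsd11b1, which activates glucocorticoids, at 673 in CD30low and 214 in CD30high cells (3.14-fold). Hsd17b10, a mitochondrial dehydrogenase, was at 2434 in CD30low and 7437 in CD30high cells (3.06-fold higher), Akr1b8 was at 331 in CD30low and 782 in CD30high cells (2.36-fold higher), and Akr1a1 was level at 24070.2 and 26082.

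Central metabolism differed little. Of 29 measured glycolysis and hypoxia genes only Hilpda passed, although 25 had a ratio above 1, with a median of 0.14. Ldha was at 31588 and 32927 and Pgk1 at 34300.3 and 36270.2. Of 74 measured genes of the respiratory chain 1 was higher, Cox6b2, an isoform best known from testis, at 129.7 and 399.7, and the median was -0.03. Among 39 measured ATF4 target, serine synthesis and tRNA synthetase genes 30 had a ratio above 1 and 2 passed. They were Cth, which makes cysteine, at 116 in CD30low and 436 in CD30high cells (3.76-fold), and Vldlr, a lipoprotein receptor, at 962 in CD30low and 2329 in CD30high cells (2.42-fold). In the redox list 3 of 28 genes were higher, among them Gstt1, a glutathione transferase, at 510.0 and 1248. In polyamine and tryptophan metabolism Ido1, which degrades tryptophan, was at 197 in CD30low and 1821 in CD30high cells (9.22-fold). Smox, the spermine oxidase, and Azin2, an inhibitor of antizymes, stood outside the list and were singled out after their values were seen, with Smox at 1889 in CD30low and 9833 in CD30high cells (5.21-fold) and Azin2 at 157 in CD30low and 784 in CD30high cells (4.98-fold). Odc1, the first enzyme of polyamine synthesis, was at 9706 and 12027. Of 101 measured solute carriers, zinc transporters included, 7 were higher and 1 was lower. The glucose carriers Slc2a1 and Slc2a3 were level, with 10802 and 10979.7 for Slc2a1, and Slc15a3, a lysosomal peptide carrier, was at 135 in CD30low and 741 in CD30high cells (5.47-fold).

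Glycan-building enzymes went both ways. Of 36 measured genes 6 were higher and 4 lower. St8sia4, which makes polysialic acid, was at 2508 in CD30low and 7137 in CD30high cells (2.85-fold), and St3gal1, a sialyltransferase of O-glycans, at 262 in CD30low and 637 in CD30high cells (2.43-fold). Gcnt2, which branches poly-lactosamine chains, was at 179 in CD30low and 699 in CD30high cells (3.91-fold). Fut8, which adds the core fucose of N-glycans, was at 1629 in CD30low and 455 in CD30high cells (3.58-fold lower), and Mgat4a, which adds a branch to them, at 752 in CD30low and 324 in CD30high cells (2.32-fold lower). Galnt2 was counted as higher at 562 and 1146, but another of its probe sets had signals of 645 and 511, the opposite order. It was the only gene of 174 in which this occurred.

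Genes of the matrix and of motility went both ways. Of 15 measured matrix genes 4 were higher and 3 lower. Timp1 and Timp2, inhibitors of metalloproteinases, took opposite directions, with Timp1 at 202 in CD30low and 1868 in CD30high cells (9.27-fold higher) and Timp2 at 754 in CD30low and 123 in CD30high cells (6.11-fold lower). Lum and Dcn, small proteoglycans that are neighbours in the genome and organise collagen fibres, were at 768 in CD30low and 6697 in CD30high cells and at 127 in CD30low and 967 in CD30high cells. Ccn3, a matricellular regulator, and Itih5, a member of a family that binds hyaluronan, were at 1785 in CD30low and 142 in CD30high cells and at 2017 in CD30low and 154 in CD30high cells (12.5-fold and 13.1-fold lower). Tgm2, a transglutaminase that cross-links proteins, was at 11421 in CD30low and 23867 in CD30high cells (2.09-fold higher). Lgals1, a secreted lectin, was equal, at 44866 and 46023. Adam19 and Adam8, membrane metalloproteinases, also differed in direction, at 1407 in CD30low and 334 in CD30high cells and at 383 in CD30low and 783 in CD30high cells.

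Of 57 measured myosins and actin regulators 7 were higher and 4 lower, but actin itself was level, with Actb at 36333 and 34577. Mylk, the kinase of the myosin light chain, was at 79.1 in CD30low and 1355 in CD30high cells (at least 13.6-fold) and Myh11, a myosin heavy chain of smooth muscle, at 52.9 in CD30low and 587 in CD30high cells (at least 5.87-fold). Marcks and Marcksl1, which bind actin and membrane lipids, were at 805 in CD30low and 2488 in CD30high cells and at 1212 in CD30low and 6157 in CD30high cells. Myo10, a motor of filopodia, was at 1089 in CD30low and 3139 in CD30high cells (2.88-fold), whereas Myo6, a motor that runs toward the minus end of actin, was at 10494 in CD30low and 273 in CD30high cells (38.5-fold lower). Pdlim4, an actin-binding adaptor, was at 690.1 in CD30low and 11.9 in CD30high cells (at least 6.90-fold lower). Fscn1 passed at 295 and 637 but its second probe set had a log2 ratio of -0.43. In the S100 and annexin list 1 of 12 genes was higher, Anxa4 at 529 and 1432, and 3 were lower, with Anxa1 at 2221 in CD30low and 747 in CD30high cells (2.97-fold).

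Large housekeeping complexes were flat, but 2 of these lists leaned in 1 direction. Of 45 measured proteasome genes 0 passed 2-fold and the median was -0.03. Of 45 measured cytosolic ribosomal proteins 1 passed, Rps27, whose probe set was at 653 and 281, and the median was 0.05. Of 45 measured nucleolar genes of ribosome biogenesis 44 had a ratio above 1, with a median of 0.35. Only Rrp12 among them passed, at 404 in CD30low and 1293 in CD30high cells (3.20-fold), and Npm1 and Ncl, abundant nucleolar proteins, were at 27790.5 and 33291 and 18287 and 21108. Of 53 measured mitosis and spindle genes all had a ratio below 1, with a median of -0.38. Only Cdc25b, a phosphatase that starts mitosis, passed, at 1966 in CD30low and 758 in CD30high cells (2.59-fold lower). Mki67 and Top2a, genes of cycling cells, were at 14232 and 10973 and 22758 and 15390.5. Genes of G1/S and replication had a median of -0.17, and Rfc3, a clamp loader, was higher at 2034 in CD30low and 6644 in CD30high cells (3.27-fold). Over all measured genes 3990 ratios were above 1 and 3796 below. Without a replicate these small shared shifts have no error, and whether they exceed the spread between cultures was not tested.

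Of 22 measured BCL2 family and caspase genes 2 were higher and 0 lower. Bcl2 was at 13958 and 12701 and Mcl1 at 11866 and 11063, while Casp6, an effector caspase, was at 3098 in CD30low and 12367 in CD30high cells (3.99-fold) and Bcl2l2, which encodes the survival protein BCL-W, at 349.7 and 713. Bcl2l14, a BCL2 relative outside the list and singled out after its values were seen, was at 203 in CD30low and 1085 in CD30high cells (5.35-fold higher). Cdkn1a, the p21 cell cycle inhibitor, was at 3675 in CD30low and 7819 in CD30high cells (2.13-fold), and Sesn1, a stress gene of the same p53 target list, at 836 and 291 (2.87-fold lower). Among NF-kappaB subunits and inhibitors Tnfaip3 was higher (1167 and 2354) and Nfkbiz lower (4275 and 1669.8) of 23 measured, and Nfkbia was at 22655 and 26212. Of 23 STAT, SOCS and PIM genes only Socs3, the inhibitor of IL-6 signals, passed, at 15897 in CD30low and 7716 in CD30high cells (2.06-fold lower). GIMAP GTPases had a median of -0.62, and 7 of 8 had a ratio below 1, with Gimap4 at 22557 in CD30low and 11140.1 in CD30high cells (2.02-fold). Histone-modifying enzymes had a median of -0.08, and 2 of 70 were lower, Kdm7a (871 and 409) and Dnmt3a (1059 and 501), the second of which methylates DNA. The ER list had 2 higher genes of 31, the sensor Ern1 (281 and 640.3) and Edem2 (753 and 1945), which sorts misfolded glycoproteins, and Hspa5 was at 16079 and 18427.

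Of the 374 genes in no list 206 were higher and 168 lower. The widest ratios among the higher ones included Dab2, an endocytic adaptor, at 449 in CD30low and 3444 in CD30high cells (7.67-fold), and Plekhf1, an endosomal protein, at 396 in CD30low and 2208 in CD30high cells (5.57-fold). Lmna, which encodes the nuclear lamins A and C, was at 89.1 in CD30low and 573 in CD30high cells (at least 5.73-fold), and Zc3h12c, a relative of the RNase regnase-1, at 49.0 in CD30low and 682 in CD30high cells (at least 6.82-fold). Dennd3, an activator of RAB GTPases, was at 147 in CD30low and 880.3 in CD30high cells (5.99-fold). Among the lower ones were Trib2, a pseudokinase, at 5056 in CD30low and 975 in CD30high cells (5.19-fold), Nrn1, a GPI-anchored protein, at 7513 in CD30low and 1387 in CD30high cells (5.42-fold), and Tmem158 at 1484 in CD30low and 138 in CD30high cells (10.8-fold). Cmah, the enzyme that makes the sialic acid Neu5Gc, was at 669.7 in CD30low and 84.0 in CD30high cells (at least 6.70-fold), and Aqp9, a water and glycerol channel, at 562 in CD30low and 52.9 in CD30high cells (at least 5.62-fold). Trgv4, a variable segment of the gamma chain locus, was at 1051 in CD30low and 165 in CD30high cells (6.36-fold). Mir155hg, the host transcript of miR-155 and not the miRNA itself, was at 148 in CD30low and 777 in CD30high cells (5.26-fold higher), and belongs to a list of host genes chosen after the values were seen.

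Some genes past the limit in the same direction were neighbours. With the order of protein-coding genes from GRCm38.p6, 7665 measured genes had a position. In that order 63 genes past 2-fold formed 30 runs of directly adjacent genes, 13 of them higher and 17 lower. How many runs the 592 genes would form by position alone was not tested. Several runs were gene families, such as Armcx6, Armcx3 and Armcx2 on the X chromosome (112 and 612, 902 and 2233 and 1272 and 2999), which encode proteins with armadillo repeats. Others joined unrelated genes, such as Pla2g12a (1227 and 4197) and Casp6, Galc and Gpr65, or Klf3 with Tlr1 and Tlr6. Among the lower runs were Gzmc with Gzmb, Slfn2 with Slfn1, Cd84 with Slamf6, Akr1c18 with Akr1c13, and Gpr83 with Izumo1r (1298 and 165 and 2088 and 423). Family members can share probes, so a run of relatives is not a set of separate measurements.

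Short motifs were counted in the promoter windows, without a test of the shares. RefSeq windows of 300 bases were matched for 242 higher, 225 lower and 6413 measured genes, some with several starts. The AP-1 site TGANTCA on either strand was held by 7.99% of 313 windows of higher genes, 7.28% of 316 windows of lower genes and 4.54% of 8176 windows of all measured genes, against 7.81% of all 32851 promoters. The NF-kappaB pattern, GGG and CC with any 5 bases between them, was common everywhere, with 66.8% of windows of higher, 61.4% of lower and 67.9% of all measured genes, and 50.8% of all promoters. The pattern of interferon-regulatory factors, GNAA and GAAA with any 2 bases between them, was held by 6.07% of windows of higher, 9.49% of lower and 6.83% of all measured genes, and 7.91% of all promoters. The STAT site TTCNNNGAA was found in 10.2%, 8.54% and 6.84% in the same order, and in 8.30% of all promoters. The FOXO core TGTTTAC was found in 3.51%, 3.80% and 2.63%, and in 3.65% of all promoters. The KLF core CCACCC was found in 37.7%, 39.6% and 35.4%, and in 31.5% of all promoters. The E-box CACGTG was found in 7.67%, 8.86% and 10.8%, and in 7.15% of all promoters. The metal response core was found in 63.3%, 57.0% and 59.9%, and in 51.0% of all promoters. Both strands were searched for each motif, and the patterns can overlap one another. The mean GC content was 59.3% in windows of higher, 58.0% of lower and 61.1% of all measured genes. A match is only a string of letters and is not a bound site.

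Markers of other cells differed between the populations, and their part in the results above was not tested. Of 18 neutrophil markers 11 reached 100 and 6 reached 300 on either array, and these 6 were lower in CD30high cells. Among the 6, Ngp, Lcn2, Ltf and Chil3 reached 300 only on the CD30low array, so their direction was set by the signal limit. The summed signal of the 18 was 10421 in CD30low and 3204 in CD30high cells. S100a8 and S100a9, the abundant cytosolic proteins of neutrophils, were at 5192 in CD30low and 1209.9 in CD30high cells and at 2017 in CD30low and 527 in CD30high cells, Ngp was at 1072 and 295, Lcn2 at 459 and 101, Ltf at 353 and 69.0 and Chil3 at 312 and 86.3. Elane, Mpo and Csf3r, defining genes of neutrophils, were below 100 on both arrays, with 60.8 and 91.3 for Csf3r, and Cxcr2 was at 93.5 and 235. In the lists above, 3 of 12 S100 and annexin genes were lower in CD30high cells and 1 was higher. The lower ones were Anxa1 and the neutrophil markers S100a8 and S100a9 themselves. Of 24 interferon-induced genes 9 were lower, and so were Gzma, Gzmb and Gzmc, with the limits given above. Neutrophils also express several of these genes, and whether they were a source of the signals was not tested. The summed signal of 12 dendritic cell markers was 3125 in CD30low and 12969.9 in CD30high cells and was mostly that of Batf3 (1718 and 10567). Of them 3 of 4 measured genes were higher, Batf3, Ccl22 and Fscn1, which activated T cells can also express, while Itgax and Flt3, defining genes of dendritic cells, were below 100 on both arrays (40.3 and 57.7 and 24.2 and 46.1). Ccl22 and Fscn1 reached 300 only on the CD30high array, so their direction was set by the signal limit. The second probe set of Fscn1 went the other way, as given above. The 10 MHC class II genes summed to 2848 and 3909.8 and were dim, and of 6 measured 2 were higher and 1 lower. The higher H2-Aa and H2-Ea reached 300 only on the CD30high array and the lower H2-Ob only on the CD30low array. Their directions were thus set by the signal limit. H2-Aa was at 197 in CD30low and 544 in CD30high cells (2.76-fold higher), and another of its probe sets was at 219 and 333. H2-Ea was at 201 and 406 (2.02-fold higher), H2-Ob at 346 and 117 (2.95-fold lower) and Cd74, the invariant chain, at 145 and 184. Of 23 fibroblast markers 17 were below 100 on both arrays. Lum and Dcn were higher, whereas Col1a1, Col1a2, Col3a1, Fn1 and Sparc were all below 100 on both arrays, with 98.6 and 56.3 for Col1a2. The summed signal of 13 endothelial markers was 1644 in CD30low and 10829 in CD30high cells and was mostly that of Procr. Procr, the protein C receptor, was at 784 in CD30low and 9902 in CD30high cells, and Cdh5 and Kdr were below 100 (25.7 and 1.68 and 73.6 and 67.1). Mcpt8, a basophil protease, was higher at 85.7 and 470.2, and Gata1, a factor of mast cells and erythroid cells, lower at 602 and 51.0. Of 22 macrophage and monocyte markers 15 were below 100 on both arrays. Of the 2 measured, Ccr2, which T cells also express, was higher and Lyz1, a lysozyme, was lower, at 464 in CD30low and 92.5 in CD30high cells (at least 4.64-fold). Csf1r and Cd14 were close to 100 on the CD30high array (30.3 and 130.1 and 26.9 and 104). Of B cell markers Ighm was the only one measured, at 4842 and 3224, and Cd79a was at 40.0 and 30.1. Klrd1, a receptor chain of natural killer cells that also stands in the killer list, was at 355 in CD30low and 173 in CD30high cells (2.05-fold lower), and Cd8b1 was at 390.4 and 349.9. None of the erythroid and platelet markers was measured at 300.

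Of 14 measured genes associated with regulatory T cells 4 were higher and 5 lower, with a median of -0.47. Gpr83, Izumo1r, the folate receptor 4 protein, and Nrp1 (946 and 203) were lower, and so was Tnfrsf18, the GITR receptor (11455 and 5549.9). Higher were Ctla4 (3523 and 8241) and Il2ra (7707 and 15524), the CD25 chain, which activated T cells express too. Foxp3, the defining factor of regulatory T cells, was under 300 on both arrays, at 111 in CD30low and 46.1 in CD30high cells. Of 16 general T cell genes 14 had a ratio below 1, the median was -0.47 and only Cd27, a costimulatory receptor of the TNF receptor superfamily, passed, at 1649 in CD30low and 217 in CD30high cells (7.59-fold lower).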

How the data were processed

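RNA of CD30low and CD30high Th17 cells, sorted after 6 days of culture, was labelled with biotin by the 3' IVT Express kit and measured on whole-genome mouse GeneChips (Affymetrix), 1 array per population. The values deposited by the authors are intensity signals on a linear scale, 1 per probe set. Their source is the GeneChip Operating Software in the methods but the Affymetrix Expression Console in the submitters' processing notes. The version, the summary algorithm and the scaling target are not given in the sources used here. Equal trimmed means on both arrays show a common scale, and a change common to most genes would then not be visible.

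Of 45037 probe sets, 34945 had 1 gene symbol in the platform annotation, 34741 of which were matched to a current reference table. Another 932 had several symbols and 9160 were unnamed here. The 18193 genes were each represented by their brightest probe set, by the mean of all 4 arrays. A floor of 100 was applied to dim signals before log2 ratios were taken. A gene was measured if the brighter array reached 300, and called higher or lower at 2-fold. With 1 array per group no test was made, and precision is limited by the number of arrays. The fold rule was tested on simulated data.

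The comparison and the 69 gene lists were chosen with earlier results of these data known, and 11 further lists were chosen after the values were seen. Names were drawn from up to 8 members of each list past the rule by absolute ratio and up to 3 members that did not pass, all marker genes past the rule, Tnfrsf8, Tgm2, runs of neighbours, genes at the edge of the limit, genes with contradictory probe sets and up to 12 genes per direction in no list. Genes named outside this rule, among them Skap1, Klf13, Tsc22d3, Nfatc1, Egr1, Rora, Smox, Azin2, Ifi202b, Ifitm1, Bcl2l14 and list members under 2-fold or below the signal limit, were chosen after their values were seen. Promoters and the order of genes came from RefSeq, GRCm38.p6. Other fold limits, signal limits, floors, scalings and probe set choices were tried as alternatives. Present calls were not applied because the table used here holds none. The tools were matplotlib 3.10.9, Biopython 1.88, pandas 2.3.3 and numpy 2.4.6 under Python 3.11.15.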

Additional observations from a re-analysis of the deposited data

Results flagged for a closer look

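Probe sets without a gene name in the annotation used here entered no comparison above. Of 9160 such probe sets 1132 reached a signal of 300 in the brighter array, and 121 of these (10.7%) differed at least 2-fold between the populations, 37 higher and 84 lower in CD30high cells, against 7.6% of the named genes. The first share counts probe sets and the second counts genes by their brightest probe set, so they have unlike bases. With 1 array per population these shares were not tested against each other.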

How the results depend on the processing

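No paired analysis was possible because each population had 1 array. With a fold limit of 1.5 the rule gave 1451 genes, 741 higher and 710 lower, and with a limit of 3 it gave 255, 124 higher and 131 lower. With the second brightest probe set, for the genes that have one, it gave 200 genes, 86 higher and 114 lower, of which 64 and 73 were among the genes called above. Signal limits of 200 and 500, floors of 50 and 200, 50 added to each signal, median centring, quantile normalization, the probe set brightest on the Th17 arrays and the geometric mean of probe sets gave between 438 and 738 genes, within 1.5 times the 592. Under none of these alternatives did a gene past the limit pass it in the opposite direction. Tle1 had a log2 ratio of -0.079 with the probe set brightest on the Th17 arrays, and the same value with its second brightest one. With the second brightest probe set Fscn1 was at -0.43, Galnt2 at -0.34 and Mvk at 0.43. Log2 ratios of single named genes moved more: by over the spread between probe sets in 130 of 250 with the second brightest probe set, 98 of 472 with a floor of 200, 94 with 50 added and 89 with the geometric mean, as did 23 of 63 list medians with the second brightest probe set. The cause of these reversals was not tested. The scaling alternatives moved the median log2 ratio of all measured genes from 0.01 to -0.01 with centring and 0.02 with quantile normalization. The median of 1 list, within 0.2 of zero, changed sign under either, and with the second brightest probe set 9 of 63 list medians changed sign, 3 of them over 0.2 in size (integrins and adhesion molecules, metalloproteinases, and S100 proteins and annexins). Signals under 100 were not told apart from background, and a fold against one is a lower bound.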
